A study of Rattus norvegicus with 22 samples.

Results

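Reactive astrocyte genes were examined as a fixed set of 9 genes in rat hippocampus after traumatic brain injury (TBI). The set holds 4 intermediate filament genes (Gfap, Vim, Nes and Synm), 2 genes of secreted acute-phase proteins (Serpina3n and Lcn2), and 3 genes of membrane or enzyme proteins (Steap4, Cd109 and Aspg). It was chosen by name, and 8 of the 9 genes were found among the 17172 genes of the count table. Cd109 was not analysed here. All 8 measured genes passed the filter on low counts and were among the 12875 genes tested.

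The rats were adult male Sprague-Dawley animals. TBI rats received a moderate lateral fluid percussion injury, in which a pulse of fluid is driven onto the dura through an opening in the skull over the right hemisphere. Sham rats went through the same anesthesia and craniectomy without the pulse, so the sham level includes any effect of the surgery. The hippocampus of the injured side was collected at day 1 (2 sham, 4 TBI) or day 14 (4 sham, 4 TBI), with 1 rat per sample, and its RNA was sequenced in bulk. No transgene was involved, and the ages of the rats were not given in the sources used here.

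Astrocytes answer damage to the central nervous system by enlarging and by building more intermediate filament. Gfap, vimentin, nestin and synemin can share the same filaments, and Gfap is the standard histological marker of this state. Cytokines of the interleukin-6 family act through the receptor subunit gp130 and the transcription factor STAT3, which drives part of this response. The same pathway controls acute-phase genes in the liver, several of which astrocytes also express after injury.

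Each library held between 15065540 and 23743703 counted reads. Levels are given in CPM, read counts scaled to a common library size with TMM factors, and changes as log2 fold changes with standard errors (SE) from edgeR's quasi-likelihood test. A gene was called changed at a Benjamini-Hochberg adjusted p under 0.05 over all tested genes. The 3 libraries of sham day 1 replicate 1, TBI day 14 replicate 2 and TBI day 14 replicate 3 stood apart in choroid plexus and ependymal markers, whose summed level was 8692, 1547 and 7547 CPM there. In the other 11 libraries the same sum lay between 10.7 and 50.9 CPM. These include 1 of the 2 libraries of the sham day 1 group, so calls are also given without the 3 libraries.

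At day 1, 7 of the 8 measured genes were higher after TBI than in sham rats and 1, Synm, was lower. Across all tested genes, 11.2% were called higher and 7.93% lower in this comparison. The median log2 fold change of the 8 genes was 3.35, beside -0.02 over all tested genes. At day 14, 5 of the 8 genes (Gfap, Vim, Serpina3n, Lcn2 and Aspg) were higher and the other 3 were not called, with a median of 2.09 beside -0.03 over all tested genes. The background of genes called higher at day 14 was 4.07%. Without the 3 libraries high in choroid plexus markers, the counts were again 7 higher and 1 lower at day 1, and 5 higher at day 14. As these are bulk samples, a change in RNA per cell and a change in the number of cells of a type cannot be told apart.

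**Figure D1:**
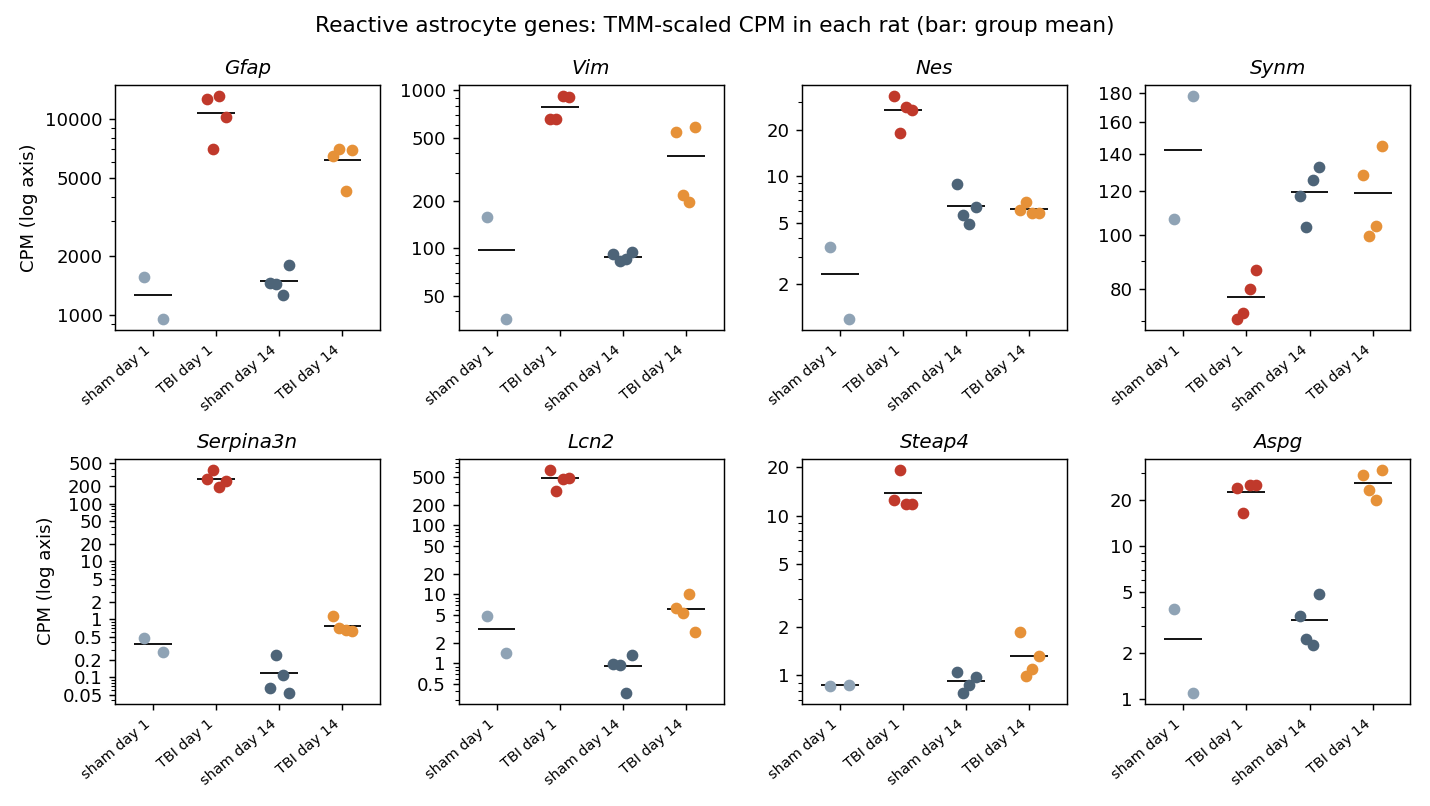
TMM-scaled CPM (log axis) of the 8 measured genes in each rat, by group, with a bar at the group mean. At day 1 the TBI and sham points do not overlap in any panel, and at day 14 they overlap for Nes, Synm and Steap4. The share of all tested genes without overlap was not counted. With so few sham rats at day 1, separation there can arise by chance and is a description only.

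Gfap, the major intermediate filament protein of mature astrocytes, was the most heavily counted of the set. Its level was 1558 and 952 CPM in the sham rats of day 1, and 12646, 6987, 13057 and 10269 CPM in the TBI rats of day 1. In the day 14 sham rats it was 1450, 1443, 1258 and 1786 CPM, and in the day 14 TBI rats 6486, 7031, 4259 and 6966 CPM. Every TBI rat lay above every sham rat on both days, while the TBI groups of the 2 days overlapped, because TBI day 1 replicate 2 fell just below TBI day 14 replicate 2. The log2 fold change was 3.10 (SE 0.32, adjusted p = 2.02e-05) at day 1 and 2.06 (SE 0.23, adjusted p = 7.26e-05) at day 14. Between the TBI groups, the log2 value at day 14 minus that at day 1 was -0.80 (SE 0.22, adjusted p = 0.0117). That call was lost without the 3 libraries high in choroid plexus markers (-0.65, adjusted p = 0.0715).

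Vim encodes vimentin, a filament protein of reactive astrocytes that endothelial cells, fibroblasts and immune cells express as well. It was 158 and 35.6 CPM in the day 1 sham rats, against 655, 656, 920 and 902 CPM in the day 1 TBI rats. The day 14 sham rats were tight, at 91.8, 82.3, 85.6 and 94.0 CPM. The day 14 TBI rats fell into a pair at 545 and 582 CPM (replicates 1 and 4) and a pair at 217 and 195 CPM (replicates 2 and 3), the latter being the libraries high in choroid plexus markers. All 4 stayed above the sham rats. Vim rose by 3.02 (SE 0.57, adjusted p = 0.00223) at day 1 and 2.12 (SE 0.41, adjusted p = 0.00538) at day 14 on the log2 scale. Without the 3 libraries the values were 4.44 and 2.69, and the part of choroid plexus tissue in these levels was not tested.

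Nes encodes nestin, a filament protein of neural progenitors that reactive astrocytes and dividing vessel cells also make. Its level was 3.50 and 1.20 CPM in the day 1 sham rats and 32.9, 19.0, 28.2 and 26.7 CPM in the day 1 TBI rats. At day 14 it was 8.91, 5.59, 4.92 and 6.31 CPM in sham rats and 6.04, 6.85, 5.81 and 5.81 CPM in TBI rats, so the groups overlapped. The log2 fold change was 3.52 (SE 0.39, adjusted p = 3.47e-05) at day 1 and -0.07 at day 14, with a 95% interval from -0.64 to 0.51 (adjusted p = 0.971). Nes was also lower in day 1 than in day 14 sham rats (log2 fold change -1.46, SE 0.36, adjusted p = 0.0144). Across all tested genes, 7.88% were called lower and 11.3% higher between the sham groups. The Nes call between sham groups was lost without sham day 1 replicate 2 (-0.87, adjusted p = 0.141).

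Synm encodes synemin, a large filament protein that needs a partner such as vimentin or desmin to assemble. It was 107 and 178 CPM in the day 1 sham rats and 70.7, 72.3, 79.9 and 86.7 CPM in the day 1 TBI rats, the only member with lower values after injury. At day 14 the sham rats were at 117, 104, 126 and 132 CPM and the TBI rats at 128, 99.8, 104 and 144 CPM, fully overlapping. The log2 fold change was -0.88 (SE 0.19, adjusted p = 0.00601) at day 1 and -0.01 at day 14 (95% interval -0.35 to 0.34). The day 1 call rests on sham day 1 replicate 2. Without that library the value was -0.47 (adjusted p = 0.208), and in a fit of the 2 day 1 groups alone it was -0.85 (adjusted p = 0.0664). Neuron markers fell at day 1 in the same samples, with 5 of 10 called lower and none higher, beside 7.93% of all tested genes called lower. Their summed level went from between 7632 and 10833 CPM in sham rats to between 3445 and 6414 CPM in TBI rats. Their part in the Synm result was not tested.

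Serpina3n encodes a secreted serine protease inhibitor of the antichymotrypsin family and showed the widest range of the set. It was close to absent in sham rats, with 9 and 6 reads (0.485 and 0.277 CPM) at day 1. In the day 1 TBI rats it was 264, 382, 195 and 241 CPM. The log2 fold change was 9.47 (SE 0.43, adjusted p = 1.18e-08). At day 14 the sham libraries held 1, 4, 2 and 1 reads and the TBI libraries 17, 12, 13 and 12 reads, so the values rest on few counts, although the groups did not overlap. The ratio of summed counts at day 14, scaled to library size, was 6.52, with an exact 95% interval from 3.08 to 15.9 that covers counting error only. By edgeR the increase was 2.65 on the log2 scale (SE 0.50, adjusted p = 0.00468) and limma-voom 2.56 (adjusted p = 0.0928). The family members Serpina3c and Serpina3m were listed at 0 in all 14 samples, and their sequences were not compared here. How the counting treated any reads shared between family members was not given in the sources used here.

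Lcn2 encodes lipocalin 2, which binds bacterial iron carriers and is made by reactive astrocytes and by neutrophils. It was 4.90 and 1.43 CPM in the day 1 sham rats and 637, 310, 472 and 492 CPM in the day 1 TBI rats. At day 14 the sham rats were at 0.983, 0.961, 0.379 and 1.31 CPM and the TBI rats at 6.30, 5.39, 10.2 and 2.90 CPM. The groups did not overlap on either day. The log2 fold change was 7.25 (SE 0.63, adjusted p = 6.15e-06) at day 1 and 2.77 (SE 0.47, adjusted p = 0.00200) at day 14. The 4.90 CPM of sham day 1 replicate 1 and the 10.2 CPM of TBI day 14 replicate 3 came from libraries high in choroid plexus markers. With the 3 such libraries left out, the values were 8.37 and 2.34, and the part of choroid plexus tissue was not tested. Lcn2 was higher in day 1 than in day 14 sham rats (1.78, SE 0.57, adjusted p = 0.0414), but the difference fell to 0.66 without sham day 1 replicate 1. The call was also lost with any 1 sham day 14 rat left out (adjusted p from 0.0562 to 0.0788). It was not made by limma-voom (adjusted p = 0.168) or by edgeR with the replicate block (adjusted p = 0.0502).

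Steap4 encodes a metalloreductase that handles iron and copper at membranes, and was rare in every sham rat. It was 0.862 and 0.876 CPM in the day 1 sham rats and 12.6, 19.3, 11.8 and 11.8 CPM in the day 1 TBI rats. At day 14 it was 1.05, 0.781, 0.865 and 0.980 CPM in sham rats and 1.86, 0.996, 1.09 and 1.32 CPM in TBI rats, and TBI day 14 replicate 2 lay inside the sham range. Steap4 rose by 3.99 (SE 0.34, adjusted p = 5.63e-06) at day 1. The day 14 value was 0.51, with a 95% interval from -0.06 to 1.07 (adjusted p = 0.462).

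Aspg encodes an asparaginase. It was 3.88 and 1.11 CPM in the day 1 sham rats and 24.0, 16.4, 24.8 and 24.9 CPM in the day 1 TBI rats. At day 14 it was 3.47, 2.46, 2.27 and 4.90 CPM in sham rats and 29.1, 23.3, 19.9 and 31.4 CPM in TBI rats. The TBI groups overlapped each other and lay wholly above the sham groups. The log2 fold change was 3.19 (SE 0.44, adjusted p = 0.000221) at day 1 and 2.98 (SE 0.33, adjusted p = 6.08e-05) at day 14.

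**Figure D2:**
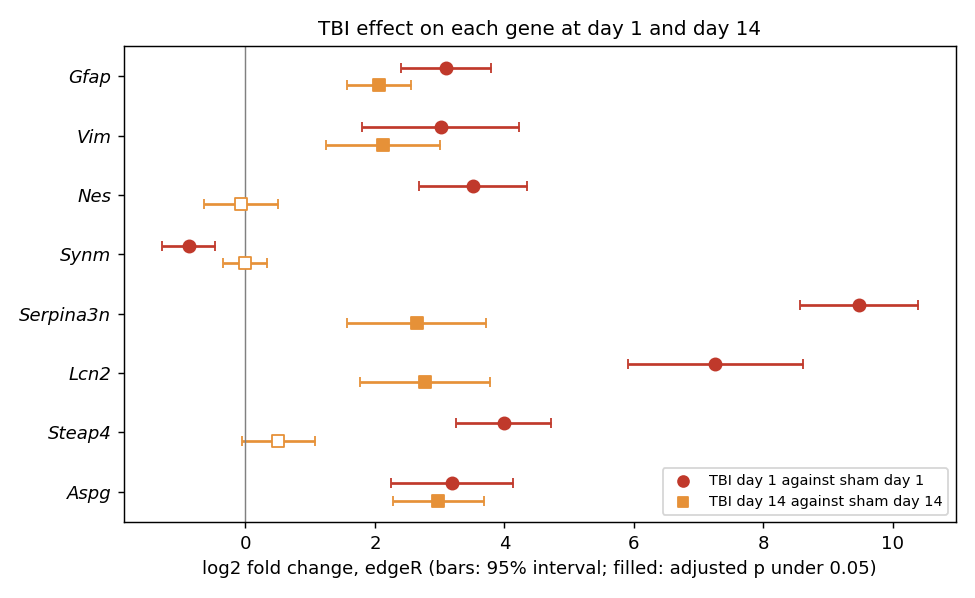
Log2 fold change of TBI against sham at day 1 (circles) and day 14 (squares) for each gene, with 95% intervals from edgeR. Filled symbols are called at an adjusted p under 0.05. Nes, Synm and Steap4 have open symbols at day 14, and Aspg has nearly the same value on both days.

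The 8 genes did not keep the same share of their day 1 response. The difference between the TBI effects of day 1 and day 14 was called for 4 genes, all with the larger effect at day 1, against a background of 2.24% of tested genes called in that direction. It was 6.82 (SE 0.99, adjusted p = 0.00245) for Serpina3n, 4.48 (SE 0.74, adjusted p = 0.00533) for Lcn2, 3.59 (SE 0.46, adjusted p = 0.00105) for Nes and 3.48 (SE 0.42, adjusted p = 0.000595) for Steap4. For Gfap it was 1.04 (95% interval 0.27 to 1.80, adjusted p = 0.124) and for Vim 0.90 (-0.46 to 2.25, adjusted p = 0.467), so these were not called. The Vim difference was called without sham day 1 replicate 1 (2.34, adjusted p = 0.0473) and without the 3 libraries high in choroid plexus markers (1.75, adjusted p = 0.0135). For Aspg it was 0.21 (-0.87 to 1.29, adjusted p = 0.853). For Synm it was -0.87 (-1.41 to -0.33, adjusted p = 0.0708), and this was called without sham day 1 replicate 1 (-1.19, adjusted p = 0.0141) and without the 3 libraries (-1.42, adjusted p = 0.0115).

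The genes also kept different shares of their level above sham. The mean CPM above sham at day 14, as a percentage of that at day 1, was 113% for Aspg, 49.6% for Gfap and 43.1% for Vim. It was 3.06% for Steap4, 1.11% for Lcn2 and 0.244% for Serpina3n. Nes stood at -1.26%, as its day 14 TBI mean was just under the sham mean. Lcn2 and Serpina3n were thus called higher at day 14 at levels far under those of day 1, whereas the excess of Gfap, Vim and Aspg was of the same order on both days.

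The direct comparison of the TBI groups gave 5 genes lower at day 14 than at day 1 and 1, Synm, higher, against backgrounds of 21.9% lower and 17.6% higher. Serpina3n fell by 8.46, Lcn2 by 6.26, Steap4 by 3.40 and Nes by 2.12 on the log2 scale, and none of the 4 overlapped between the days. Synm rose by 0.62 (SE 0.16, adjusted p = 0.00759). The value for Vim was -1.03 with an adjusted p of 0.0527, and its TBI groups did not overlap. Aspg had 0.20 (adjusted p = 0.615). In order of mean level, Gfap ran from TBI day 1 (10740 ± 2788 CPM, SD, n = 4) through TBI day 14 (6185 ± 1307, n = 4) and sham day 14 (1484 ± 220, n = 4) to sham day 1 (1255 ± 428, n = 2), with overlap between the TBI groups and between the sham groups. Aspg had the reverse order of the TBI groups, 25.9 ± 5.25 CPM at day 14 and 22.5 ± 4.12 CPM at day 1, which overlapped.

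Promoter sequences are shown for the 3 genes whose day 14 excess was 3.06% of day 1 or less and that belong to the acute-phase and metal-handling part of the set. All 8 measured genes matched a RefSeq promoter of the rat assembly GRCr8, and the 250 bases before the annotated start are printed 5′ to 3′ on the gene's strand. Capitals mark matches, on either strand, to the STAT motif TTCNNNGAA, the C/EBP motif TTGCNNAA or the NF-kB consensus. Serpina3n lies at chr6:129088142-129088391 (plus strand), Lcn2 at chr3:36081781-36082030 (minus strand) and Steap4 at chr4:27054770-27055019 (minus strand).
Serpina3n: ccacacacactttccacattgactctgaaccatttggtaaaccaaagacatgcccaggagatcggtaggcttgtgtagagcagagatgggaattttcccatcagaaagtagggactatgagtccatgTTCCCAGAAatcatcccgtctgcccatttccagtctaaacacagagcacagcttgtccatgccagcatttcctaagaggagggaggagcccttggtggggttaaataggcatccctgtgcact
Lcn2: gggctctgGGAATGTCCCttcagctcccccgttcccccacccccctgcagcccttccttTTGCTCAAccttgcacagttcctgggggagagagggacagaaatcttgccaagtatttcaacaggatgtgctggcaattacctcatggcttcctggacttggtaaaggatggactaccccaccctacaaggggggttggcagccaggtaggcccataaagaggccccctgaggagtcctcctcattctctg
Steap4: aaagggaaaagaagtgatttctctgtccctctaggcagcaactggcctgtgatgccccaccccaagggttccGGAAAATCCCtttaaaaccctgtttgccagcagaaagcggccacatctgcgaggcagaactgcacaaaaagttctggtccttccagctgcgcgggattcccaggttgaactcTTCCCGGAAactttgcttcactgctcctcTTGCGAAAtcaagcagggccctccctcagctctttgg

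The STAT motif began 123 bases before the start of Serpina3n and 66 bases before that of Steap4, and in none of the other 6 measured genes. It occurred in 7.67% of 33469 rat promoters of this length. The C/EBP motif began 191 bases before the start of Lcn2 and 37 bases before that of Steap4, and is held by 9.22% of promoters. The NF-kB consensus was found in Lcn2, Steap4 and Vim and in 3.54% of promoters. The AP-1 motif TGANTCA was found in Aspg only, 210 bases before its start, and in 6.34% of promoters. No matches overlapped. These are letter matches in a short window and not measured binding sites.

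The genes whose pattern over the 14 samples was most like each member were found by the root mean square difference of centred log2 CPM. For Gfap these were Ripk3 (0.27), Ly86 (0.28) and Ifi30 (0.33), of which Ly86 and Ifi30 are genes of immune cells. For Vim they were Anxa1 (0.26), Cp (0.38) and Ifitm3 (0.39), and for Aspg Ctsz (0.48), St14 (0.48) and Itgal (0.53). For Nes they were Trim47 (0.40), Flna (0.40) and Acap1 (0.42). For Steap4 they were Osmr (0.35), the receptor subunit for oncostatin M, Tnfrsf12a (0.39) and Nlrp12 (0.41). For Serpina3n and Lcn2 the likeness was looser. Each was nearest to the other (1.03), followed by Ccl2 (1.32) and Msr1 (1.34) for Serpina3n, and by Msr1 (1.14) and Timp1 (1.19) for Lcn2. For Synm, Phlpp1 (0.15) and Slain1 (0.16) were among the nearest. Within the set, the closest pairs were Gfap with Vim (0.49) and Gfap with Aspg (0.54). All these values share the same libraries and are descriptions.

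Among 26 tested genes of a list of other reactive astrocyte genes, 18 were higher at day 1 and none lower, and the list had a median change of 2.88 on the log2 scale. At day 14, 10 were higher and none lower, with a median of 1.13. The largest called increases at day 1 were those of Timp1, an inhibitor of matrix metalloproteinases (6.31, SE 0.48), and Hspb1, a small heat shock protein that binds filaments (5.87, SE 0.38). At day 14 they were those of the complement genes Serping1 (3.07, SE 0.35) and C3 (2.79, SE 0.21). C3 rose more at day 14 than at day 1, when its log2 fold change was 1.13 (SE 0.26), with a difference of -1.67 (SE 0.31, adjusted p = 0.00916). Its mean was 35.7 CPM in day 1 sham, 77.8 in day 1 TBI, 48.4 in day 14 sham and 335 in day 14 TBI rats.

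**Figure D3:**
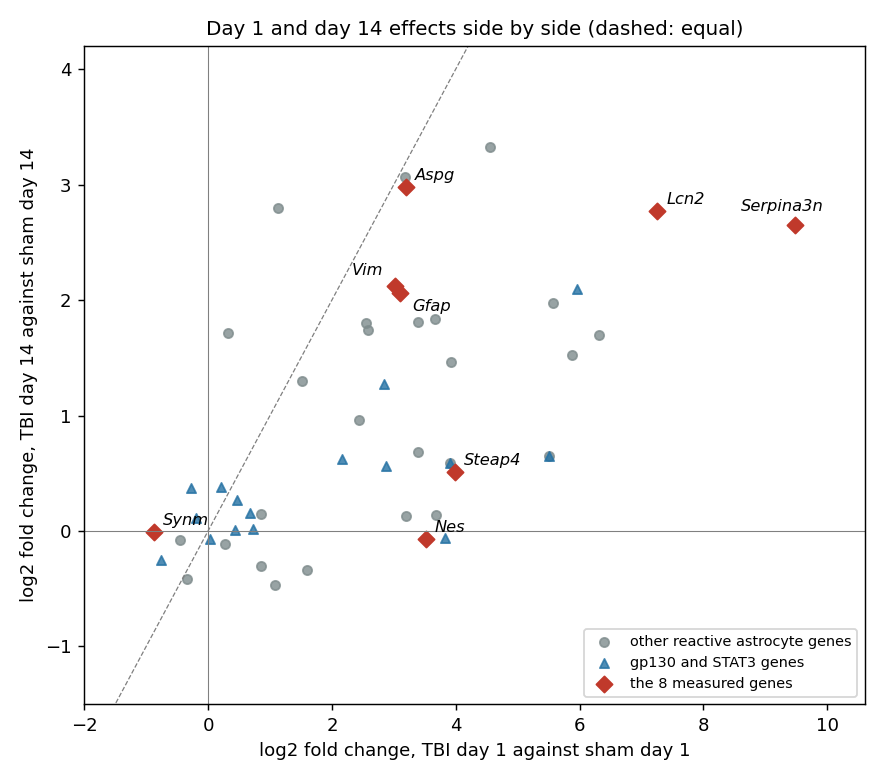
Log2 fold change at day 1 (x axis) and day 14 (y axis) for the 8 measured genes (red diamonds, named), other reactive astrocyte genes (grey circles) and gp130 and STAT3 genes (blue triangles), with a dashed line where both are equal. Aspg lies near the line, while Serpina3n, Lcn2, Steap4 and Nes lie far to its right.

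Of 16 tested genes of the gp130 and STAT3 pathway, 8 were higher at day 1 and none lower (median 0.71), and 2 were higher at day 14 (median 0.32). Without the 3 libraries high in choroid plexus markers the day 1 count was 5. Socs3, a feedback inhibitor that STAT3 induces, rose from a mean of 0.485 to 29.9 CPM at day 1 (log2 fold change 5.95, SE 0.59) and Clcf1, a ligand of the pathway, from 0.712 to 31.5 CPM (5.50, SE 0.68). At day 14 Socs3 was higher by 2.09 (SE 0.42) and Stat3 itself by 0.63 (SE 0.15, adjusted p = 0.0289). The Socs3 call at day 14 was not made by limma-voom (adjusted p = 0.215), and that of Stat3 was lost when any of 6 libraries was left out. Il6st, which encodes gp130, had 0.21 (SE 0.16) at day 1 and 0.38 (SE 0.13) at day 14, neither called.

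Other intermediate filament and linker genes did not follow Gfap and Vim as a list. Of 12 tested, 3 were higher at day 1 and none lower (median -0.23), and none was called at day 14 (median 0.01). The count called lower at day 1 was 4 by DESeq2, 2 without the 3 libraries high in choroid plexus markers, and between 0 and 3 leaving out 1 library, with 3 reached without sham day 1 replicate 1 or TBI day 1 replicate 3. The 3 genes called higher were Des, the desmin filament of muscle and mural cells (1.88, SE 0.34), and the nuclear lamina genes Lmna (1.09, SE 0.15) and Lmnb1 (0.98, SE 0.22). The neurofilament genes Nefl, Nefm and Nefh had day 1 values of -0.97, -1.21 and -0.67, none of them called (adjusted p = 0.0909, 0.0590 and 0.0588). Lmnb1, Il6st and the neurofilament genes were named after their values were seen.

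Of 11 tested acute-phase genes beyond the set, 5 were higher at day 1 and none lower (median 2.38), led by Mt2A, a metallothionein (4.23, SE 0.59), and Serping1 (3.18, SE 0.47). At day 14, 2 were higher, Serping1 and the copper-carrying ferroxidase Cp (1.74, SE 0.27), and the list's median was 0.31. Of 9 tested partners of the members, such as receptors and target proteases, Mmp9 was the single gene called higher at day 1 (2.25, SE 0.35). That count is near the background of 11.2% of all tested genes called higher at day 1. Mmp9 is a matrix metalloproteinase that lipocalin 2 binds. None of the partners was called at day 14, but 2 were called higher there without sham day 1 replicate 1, without sham day 1 replicate 2, or in a fit of the 2 day 14 groups alone.

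Markers of cell types were read beside these results. The day 1 counts of these lists, here and below, stand beside 11.2% of all tested genes called higher and 7.93% lower. Those of day 14 stand beside 4.07% called higher. Of 9 tested astrocyte markers, Glul and Fgfr3 were higher and Gjb6 lower at day 1, and none was called at day 14. Their summed level was 6799 to 10397 CPM in day 1 sham rats, 8161 to 10413 in day 1 TBI rats, 4636 to 5827 in day 14 sham rats and 5739 to 7541 in day 14 TBI rats. The summed level thus overlapped between TBI and sham groups, on both days. Of 10 microglia and macrophage markers, 6 were higher and 2 lower at day 1, and 7 were higher at day 14. Their sum was 214 to 366 CPM in day 1 sham rats, 517 to 625 in day 1 TBI rats, 246 to 327 in day 14 sham rats and 660 to 1256 in day 14 TBI rats.

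Neutrophil markers, like Lcn2, were higher by sum in TBI than in sham rats on both days. Of 10 listed, 6 were tested and 4 were higher at day 1 (S100a8, S100a9, Csf3r and Cxcr2), and 1, Csf3r, was higher at day 14. Their sum was 4.43 to 10.2 CPM in day 1 sham rats, 29.6 to 79.7 in day 1 TBI rats, 5.57 to 7.67 in day 14 sham rats and 15.6 to 27.8 in day 14 TBI rats. The day 14 sums were mostly Csf3r, with means of 5.33 CPM in sham and 18.5 CPM in TBI rats. S100a8, S100a9 and Cxcr2 were not called at day 14. Their day 14 means were 0.101, 0.245 and 0.0272 CPM in sham and 0.0775, 0.580 and 0.0380 CPM in TBI rats. Of the other listed markers, Ltf was at 0 in both sham groups and in day 1 TBI rats. Mpo, Ngp and Camp were not tested. Their means were 0.231, 0.188 and 0.235 CPM in day 1 sham and 0.068, 0.211 and 0.144 CPM in day 1 TBI rats. In the day 14 TBI rats, replicate 3 had the most Lcn2 (10.2 CPM) but the lowest neutrophil sum, and replicate 4 the reverse. In the day 1 TBI rats, replicate 2 had the least Lcn2 (310 CPM) and the highest sum. In both sham groups the rat with the most Lcn2 also had the highest sum. The part of neutrophils in the Lcn2 level was not tested.

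Of 10 endothelial markers, 2 were higher at day 1, and of 10 mural cell markers 4, with none called at day 14 in either list. Mural sums were 156 to 309 CPM in day 1 sham and 525 to 751 in day 1 TBI rats. Between these groups the mean of Tagln went from 31.0 to 338 CPM and that of Anpep from 7.59 to 72.7 CPM. Pdgfrb, Rgs5, Abcc9, Acta2, Myh11 and Notch3 were not called at day 1. Of 7 tested fibroblast markers 1 was higher at day 1, and of 9 neural progenitor markers 3 were higher and 2 lower. Of 10 oligodendrocyte markers, 2 were lower at day 1. Of 9 tested choroid plexus and ependymal markers, 7 were lower at day 1 and 1 was higher at day 14, with the 3 libraries named above setting these values. The part of these cell types in the levels of Vim, Nes and the other members was not tested.

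**Figure D4:**
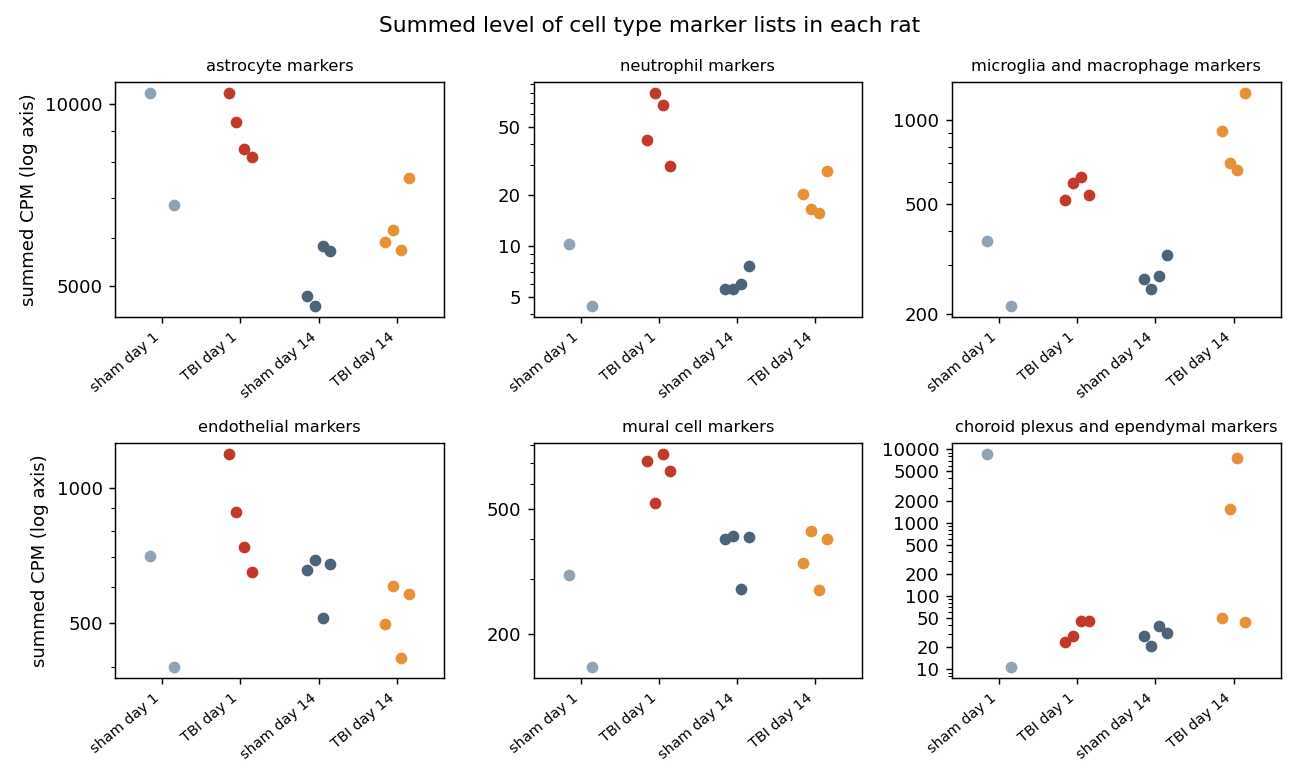
Summed CPM (log axis) of 6 lists of cell type markers in each rat, by group. Astrocyte sums overlap between TBI and sham rats on both days, neutrophil and microglial sums do not, and 3 libraries stand far above the rest in choroid plexus and ependymal markers. At day 14 the neutrophil sum is mostly Csf3r.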

How the data were processed

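Single-end reads of 50 bases from stranded mRNA libraries of 14 rat hippocampi were aligned by the authors to the rn5 genome with STAR 2.4.2a and counted per gene with featureCounts 1.5.0. The deposited table holds raw counts with no normalization. The strand setting of the counting was not given in the sources used here, so overlapping genes may share reads. H3K4me3 peak files were not used here.

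Counts were filtered with filterByExpr, scaled by TMM factors and fitted in edgeR 4.0.16 (R 4.3.3) with 1 mean per group over all 14 samples, and contrasts were tested two-sided with glmQLFTest. log2 CPM used a prior count of 2. SE values follow from the fold change and the F statistic. limma 3.58.1 (limma-voom, the study's own model) and DESeq2 1.42.0 served as alternatives. The script was tested on simulated data. No replicates of a group agreed within sampling noise. The p-values rest on separate rats, with 2 in the sham day 1 group.

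The genes of the set, 15 further gene lists and the tests were chosen with earlier results of these data known. All measured genes of the set are named. From each of 5 lists the 2 called genes with the largest increase at day 1 and at day 14 are named, along with the 3 genes nearest to each gene of the set, of which 1 is not reported here. The 10 lists of cell type markers are given by counts and sums. Some genes stand in more than 1 list. Motifs were searched in RefSeq promoters of GRCr8 and no coordinates were converted from rn5.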

Additional observations from a re-analysis of the deposited data

Results flagged for a closer look

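The TBI effect differed between day 1 and day 14, by the edgeR test of the difference of log2 fold changes, for 13 of the 20 genes named by rule. Across all tested genes, 2.24% were called with a higher value at day 1 and 1.44% in the other direction. The named genes outside the set were picked by their changes at these same days, so the count is a description and not a test. It was larger at day 1 for Serpina3n (6.82), Clcf1 (4.85), Timp1 (4.62), Lcn2 (4.48), Hspb1 (4.34), Socs3 (3.86), Nes (3.59), Steap4 (3.48), Mmp9 (2.84), Mt2A (2.73), Stat3 (1.53) and Lmna (1.03). C3 alone among them had the larger effect at day 14 (-1.67).

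In 6 of 60 groups of 4 rats, 1 rat lay far from the other 3, with a gap that took a share of the group's range above Dixon's 95% critical value. Chance flags about 1 in 20 groups. Gfap was low in TBI day 14 replicate 3 (0.839), which is also a library high in choroid plexus markers. Steap4 was high (0.871) and Aspg low (0.911) in TBI day 1 replicate 2. Lmna was low in TBI day 1 replicate 1 (0.830), Stat3 low in sham day 14 replicate 1 (0.846) and Mmp9 low in sham day 14 replicate 3 (0.995).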

How the results depend on the processing

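The day 1 count of 7 genes of the set called higher was 5 with at least 10 counts required in every sample, a filter that drops Serpina3n and Lcn2, and 7 in all other alternatives. The day 14 count was 3 with that filter, 4 by limma-voom and 5 in the others, and the same filter gave 2 in place of 4 for the difference between days and 3 in place of 5 for TBI day 14 below TBI day 1. The count called lower at day 1 was 0 with only the groups compared and 0 to 1 leaving out 1 library. The difference between days was called with the larger fall at day 1 for 1 gene, Synm, by DESeq2 and without the 3 libraries high in choroid plexus markers, an alternative added after seeing the data, and for 0 to 1 leaving out 1 library. Between sham groups, the count called higher was 0 by limma-voom, with at least 10 counts, with the replicate block, at an adjusted p under 0.01 and without the 3 libraries, and 0 to 2 leaving out 1 library. The count called lower was 0 at an adjusted p under 0.01, 3 without the 3 libraries and 0 to 2 leaving out 1 library.

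Some values that were small in the main fit changed sign under alternatives, and not all of them stayed near 0. Between sham groups, a fit without a sham day 1 library leaves 1 rat in that group. The day 14 log2 fold change of Nes was 0.28 against all 6 sham rats and -0.18 to 0.13 leaving out 1 library. That of Synm was 0.011 with at least 10 counts, 0.026 with only the groups compared, 0.21 without the 3 libraries and -0.11 to 0.067 leaving out 1 library. The Aspg difference between days ran from -0.45 to 1.36. Between sham groups, leaving out 1 library gave -0.64 to 0.070 for Gfap, -0.16 to 0.57 for Synm, -1.56 to 0.24 for Aspg and -1.31 to 0.84 for Vim, and Vim was -0.24 by limma-voom, -0.056 with the replicate block and -1.30 without the 3 libraries.

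Of the gp130 and STAT3 genes, 3 were called higher at day 1 with at least 10 counts and 5 with only the groups compared, in place of 8. Beside counts of 0 called lower at day 1, leaving out 1 library gave 0 to 1 for the reactive astrocyte, gp130 and STAT3, and partner lists. The Gfap difference between days was called by DESeq2 (1.03, adjusted p = 0.0475). Vim was called lower in TBI day 14 than TBI day 1 by DESeq2 (adjusted p = 0.0218) and limma-voom (adjusted p = 0.0359). Without sham day 1 replicate 2, the count over all tested genes at day 1 fell from 1437 higher and 1021 lower to 555 and 367. The cause of these changes was not tested.

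Replicate numbers were not treated as pairs in the main fit. The correlation of same-numbered deviations ran from -0.35 to 0.24, with 5 of 18 over 0.1. Samples of different numbers were not compared in this way, and a batch shared by number was not tested. With the replicate block, 7 genes were higher and 1 lower at day 1, 5 higher at day 14 and 6 lower in TBI day 14 than TBI day 1, Vim being added. The cause was not tested. With 2 sham rats at day 1 and under 20 reads of Serpina3n or Steap4 in most day 14 libraries, small changes of these genes could not be detected at this depth.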
